A study of Schizosaccharomyces pombe with 9 samples.

Results

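The arginine genes of the fission yeast Schizosaccharomyces pombe were followed in cells that lack Snf22, the ATPase of the SWI/SNF chromatin remodeling complex, or that carry an ATPase-site mutant of it. The 9 genes were chosen by name: 8 that act in arginine synthesis (arg6, arg11, arg1, arg3, arg5, arg4, arg12 and arg7) and car1, an arginase. They were matched by systematic ID to the count matrix, which holds 6988 gene IDs, and all 9 passed the filter on low counts, which 6091 genes passed. The rule that picks them uses names and no measured value, although it was set with earlier results of these data known. According to the annotation of a later genome version, arg11 and arg3 are on chromosome I, arg1 is on chromosome III and the other 6 genes are on chromosome II.

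Poly(A)+ RNA was sequenced from 9 libraries, 3 biological replicates of each of 3 genotypes. The snf22∆ strain has a kanMX drug resistance marker in place of the start and most of the length of the snf22 reading frame, and the 3′ part of the gene remains. In the snf22-(D996A-E997A) strain the Asp and Glu of the ATPase motif II are both alanine, and a kanMX marker with an nmt1 poly(A) site before it sits 3′ of the gene. No marker is named for the WT strain, so marker and mutation cannot be told apart in either comparison with WT. All 3 strains are haploids labelled h-, each genotype is represented by 1 laboratory strain, and all cultures grew in YES, a rich medium, at 30°C to log phase. The paper's strain list, however, gives the snf22∆ strain with kanMX and no other marked allele as h+. Which mating type the sequenced snf22∆ strain had was not resolved. The paper states that all its strains carry mutant alleles of leu1, ura4, his3 and ade6, and that the ade6 allele differs among them. The background is therefore mutant in genes of leucine and histidine synthesis in WT as well.

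Arginine is built from glutamate. The amino group is first acetylated, which keeps the intermediates from closing into a ring on the way to proline, and the acetylated chain is phosphorylated, reduced and transaminated to an ornithine derivative inside the mitochondrion. Ornithine takes up a carbamoyl group, made by a carbamoyl-phosphate synthase of a small and a large subunit, to become citrulline, which is joined to aspartate as argininosuccinate and then split into arginine and fumarate. Arginase runs the other way, splitting arginine into ornithine and urea, so that its nitrogen can be used. In yeasts the synthesis genes are known for a rise under amino acid shortage, and in fission yeast the transcription factor Fil1 takes that part.

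Total counts ran from 15696972 (WT replicate 3) to 22664218 (snf22∆ replicate 2) per library. Here "called" means that 3 marks, taken over from the study, were all met: an edgeR adjusted p of 0.05 or less, a fold of 2 or more, and a mean of 100 or more normalized counts in whichever genotype had the higher mean. "Rose" and "fell" are used for genes that passed the adjusted p, whether or not the fold was reached. The gene snf22 itself had 1471, 1379 and 1222 normalized counts in snf22∆ and 1966, 2273 and 2312 in snf22-(D996A-E997A), against 2835, 2779 and 2738 in WT. It was 2.05-fold lower in snf22∆, where the 3′ part of the gene remains, and 1.28-fold lower in snf22-(D996A-E997A). The libraries snf22-(D996A-E997A) replicate 1 and WT replicate 2 stood apart from the others of their genotype. The chi-square per gene between snf22-(D996A-E997A) replicates was 33.7 and 35.8 with replicate 1 and 5.26 without it, and between WT replicates 71.6 and 59.8 with replicate 2 and 9.31 without it. The 5 M-cell markers that fit the h- label (mfm1, mfm2, mfm3, mam1, mam2) all had counts in each genotype and sum to 2195 to 3016 normalized counts in snf22∆, 8376 to 8919 in snf22-(D996A-E997A) and 4306 to 4547 in WT. The 2 P-cell markers (map2, map3) sum to 513 to 548, 457 to 553 and 572 to 655 in the same genotypes, and neither was at 0. The part that these marker levels have in the results was not tested. In these bulk cultures fewer cells with an RNA and less of it per cell cannot be told apart.

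The synthesis genes were lower in both mutants, with 1 exception at the last step. Of the 8, 7 fell in snf22∆ and 3 of these (arg5, arg4 and arg12) were called lower. The same 7 fell in snf22-(D996A-E997A), with the same 3 called, while arg7, the lyase of the last step, did not fall in either mutant. The median log2 fold change of the 8 was -0.77 (range -1.24 to 0.15) in snf22∆ and -0.78 (range -1.13 to 0.29) in snf22-(D996A-E997A), against 0.02 over all genes tested in both comparisons. Of all genes tested, 3.1% were called lower and 25.8% fell in snf22∆, and 3.07% were called lower and 22.7% fell in snf22-(D996A-E997A). Among the 4990 coding genes tested, 111 were called lower and 1230 fell in snf22∆. In snf22-(D996A-E997A) the numbers were 87 and 979. The 2 comparisons share the WT libraries, so their likeness is in part built in. The 8 genes together took 0.335%, 0.365% and 0.380% of all counts in snf22∆ libraries and 0.408%, 0.328% and 0.322% in snf22-(D996A-E997A) libraries, against 0.571%, 0.677% and 0.590% in WT. Every mutant library lay under every WT library in this share, which averaged 0.360% ± 0.0230, 0.353% ± 0.0482 and 0.613% ± 0.0563 (SD, n = 3 each).

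**Figure D1:**
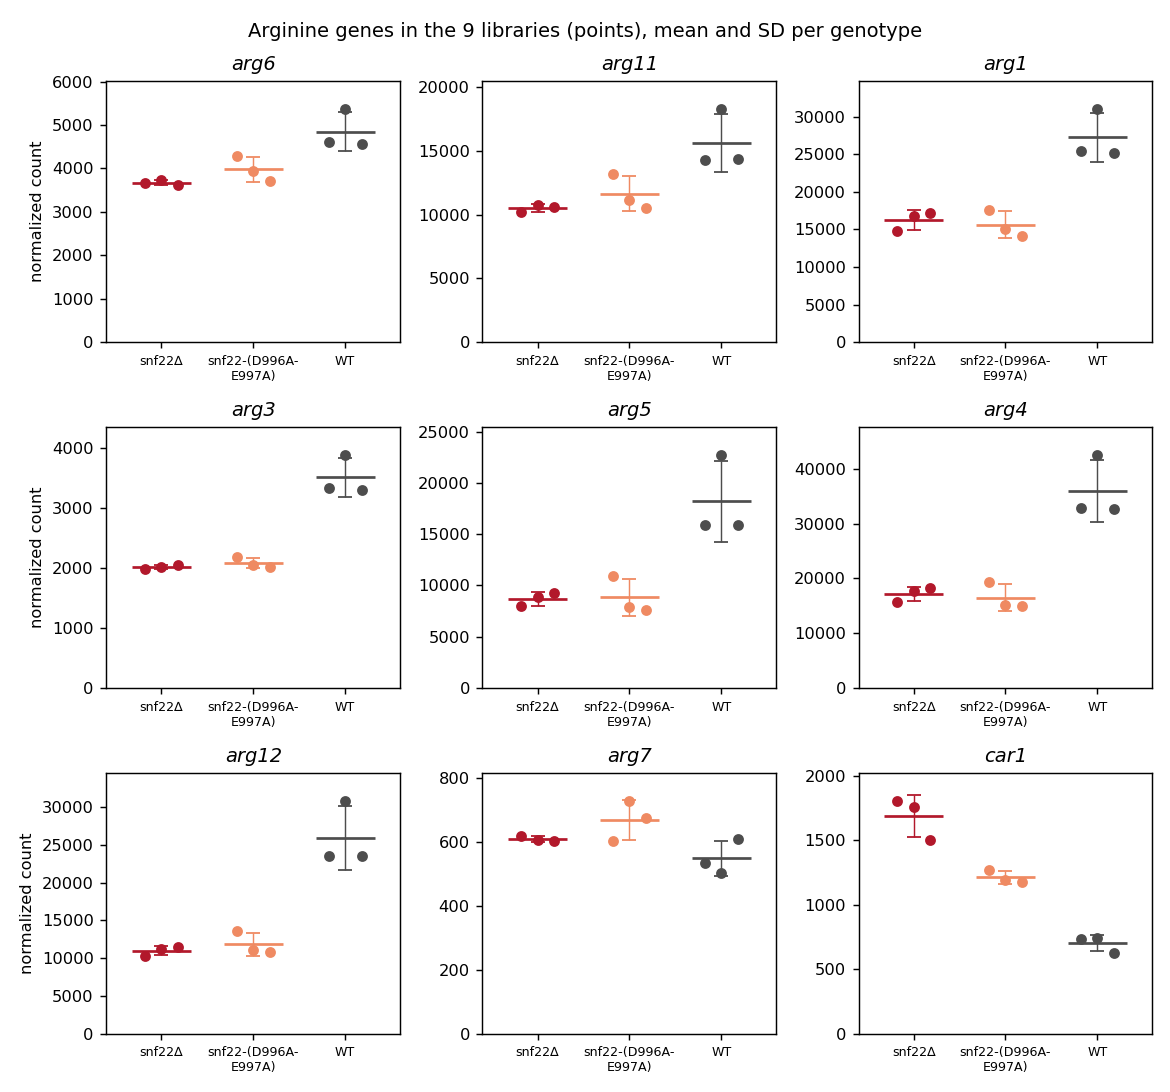
Normalized count (vertical axes, linear and starting at 0) of each of the 9 genes in snf22∆, snf22-(D996A-E997A) and WT; points are the 3 libraries of a genotype in replicate order, the bar is their mean and the whisker their SD. In the panels of arg6 to arg12 all mutant points lie under the WT points, arg7 overlaps, and car1 runs the other way with snf22∆ highest, up to 1808. The share of all genes tested that separate in this way is not given.

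At the head of the pathway, arg6, for the N-acetylglutamate synthase that commits glutamate to arginine, had the smallest fall of the 7. It had 3674, 3737 and 3609 normalized counts in snf22∆ and 4283, 3946 and 3704 in snf22-(D996A-E997A), against 4618, 5369 and 4564 in WT. The groups do not overlap, but the highest snf22-(D996A-E997A) library came within 1.07-fold of the lowest WT one. Here and below, the share of all genes tested whose groups do not overlap is not given, so such separation is description only. The log2 fold change was -0.40 ± 0.080 (SE) in snf22∆ (edgeR adjusted p = 0.00164) and -0.29 ± 0.080 in snf22-(D996A-E997A) (edgeR adjusted p = 0.0132). Without snf22-(D996A-E997A) replicate 3 the second fall no longer passed, at -0.23 with an edgeR adjusted p of 0.0558. The gene arg11 encodes the kinase and the reductase of the next 2 steps in 1 chain. It had 10182, 10771 and 10631 normalized counts in snf22∆ and 13230, 11168 and 10567 in snf22-(D996A-E997A), against 14297, 18305 and 14341 in WT. All mutant libraries were under WT, with snf22-(D996A-E997A) replicate 1 nearest, at 1.08-fold. It was 1.49-fold lower in snf22∆ (edgeR adjusted p = 0.00138) and 1.34-fold lower in snf22-(D996A-E997A) (edgeR adjusted p = 0.00926). A glutamate acetyltransferase gene, aga1 (SPBC1271.14), which is no member of the 9, did not go with them: its log2 fold change was 0.16 in snf22∆ (edgeR adjusted p = 0.068), and it rose slightly, by 0.20, in snf22-(D996A-E997A) (edgeR adjusted p = 0.0366).

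The aminotransferase gene arg1, which gives acetylornithine, had 14735, 16823 and 17215 normalized counts in snf22∆ and 17608, 15042 and 14152 in snf22-(D996A-E997A), against 25490, 31029 and 25198 in WT. The gap to the nearest WT library was 1.46-fold in snf22∆ and 1.43-fold in snf22-(D996A-E997A). It fell 1.68-fold (edgeR adjusted p = 0.000278) and 1.75-fold (edgeR adjusted p = 0.000221) in the same mutants. The gene arg3, for ornithine carbamoyltransferase, lies next to arg11 on the opposite strand with no coding gene between, so that the 2 genes start from a shared stretch and run apart. It had 1989, 2010 and 2047 normalized counts in snf22∆ and 2184, 2048 and 2017 in snf22-(D996A-E997A), against 3339, 3884 and 3298 in WT. The 3 snf22∆ values are nearly alike, and every mutant value is well under WT. The falls were 1.74-fold in snf22∆ (edgeR adjusted p = 9.83e-06) and 1.68-fold in snf22-(D996A-E997A) (edgeR adjusted p = 2.19e-05), beside 1.49-fold and 1.34-fold for its divergent partner arg11. Whether the partners differ in their fall was not tested.

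Both subunits of the arginine-specific carbamoyl-phosphate synthase were called lower in both mutants. The small subunit gene arg5 had 7945, 8860 and 9294 normalized counts in snf22∆ and 10943, 7936 and 7628 in snf22-(D996A-E997A), against 15931, 22738 and 15926 in WT. For the large subunit gene arg4 the values were 15619, 17609 and 18200 in snf22∆ and 19321, 15104 and 14918 in snf22-(D996A-E997A), against 32862, 42568 and 32636 in WT, where it had the highest counts of the 9 genes. The groups do not overlap for either gene, and in both WT replicate 2 was far over the other WT libraries. In snf22∆ arg5 was 2.09-fold lower (log2 fold change -1.06 ± 0.161 SE, edgeR adjusted p = 0.000315) and arg4 2.1-fold lower (-1.07 ± 0.129, edgeR adjusted p = 6.92e-05). In snf22-(D996A-E997A) arg5 was 2.06-fold lower (edgeR adjusted p = 0.00049) and arg4 2.19-fold lower (edgeR adjusted p = 5.91e-05). Per kb of coding length, arg5 had 1.42, 1.40 and 1.43 times the level of arg4 in snf22∆, 1.58, 1.47 and 1.43 times in snf22-(D996A-E997A) and 1.35, 1.49 and 1.36 times in WT, so the ratio of the subunit RNAs overlapped between genotypes while both fell. The call of both genes in snf22∆ was lost without WT replicate 2 (log2 fold change -0.90 for arg5 and -0.97 for arg4) and under upper quartile scaling (-0.98 for both), which left arg12 as the 1 member called lower there. In snf22-(D996A-E997A) the call of arg5 was lost under upper quartile scaling (-0.96) and without WT replicate 2 (-0.86), snf22-(D996A-E997A) replicate 2 (-0.97) or replicate 3 (-0.94), and that of arg4 was not. The fall itself passed the adjusted p in all 16 alternative settings for both genes in both mutants.

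The largest change in snf22∆ among the synthesis genes was that of arg12, for argininosuccinate synthase, which joins citrulline and aspartate. It had 10313, 11264 and 11464 normalized counts in snf22∆ and 13617, 11114 and 10799 in snf22-(D996A-E997A), against 23480, 30876 and 23497 in WT. The lowest WT library was 2.05 times the highest snf22∆ library and 1.72 times the highest snf22-(D996A-E997A) library. The log2 fold change was -1.24 ± 0.123 (SE) in snf22∆ and -1.13 ± 0.122 in snf22-(D996A-E997A) (edgeR adjusted p = 1.52e-05 and 3.99e-05), and arg12 was called lower in both mutants under all 16 alternative settings. The lyase gene arg7, which acts on the product of arg12, behaved otherwise. It had 619, 606 and 603 normalized counts in snf22∆ and 605, 731 and 675 in snf22-(D996A-E997A), against 534, 505 and 610 in WT. WT replicate 3 lay inside the mutant range, so the groups overlap. Its log2 fold change was 0.15 (95% confidence interval -0.08 to 0.38, edgeR adjusted p = 0.236) in snf22∆. In snf22-(D996A-E997A) it was 0.29 (0.06 to 0.52, edgeR adjusted p = 0.039), which passed in 7 of 16 alternative settings, with edgeR or DESeq2 adjusted p between 0.0144 and 0.150. A second gene that the annotation names as an argininosuccinate lyase, arg41, was looked at outside the rule for named genes, after its values were seen: it fell by 0.46 on the log2 scale in snf22∆ (edgeR adjusted p = 0.00312) and by 0.36 in snf22-(D996A-E997A) (edgeR adjusted p = 0.0155). Likewise outside the rule, ort1, for a mitochondrial ornithine carrier, fell by 0.79 (edgeR adjusted p = 0.000879) and by 0.91 (edgeR adjusted p = 0.000525).

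**Figure D2:**
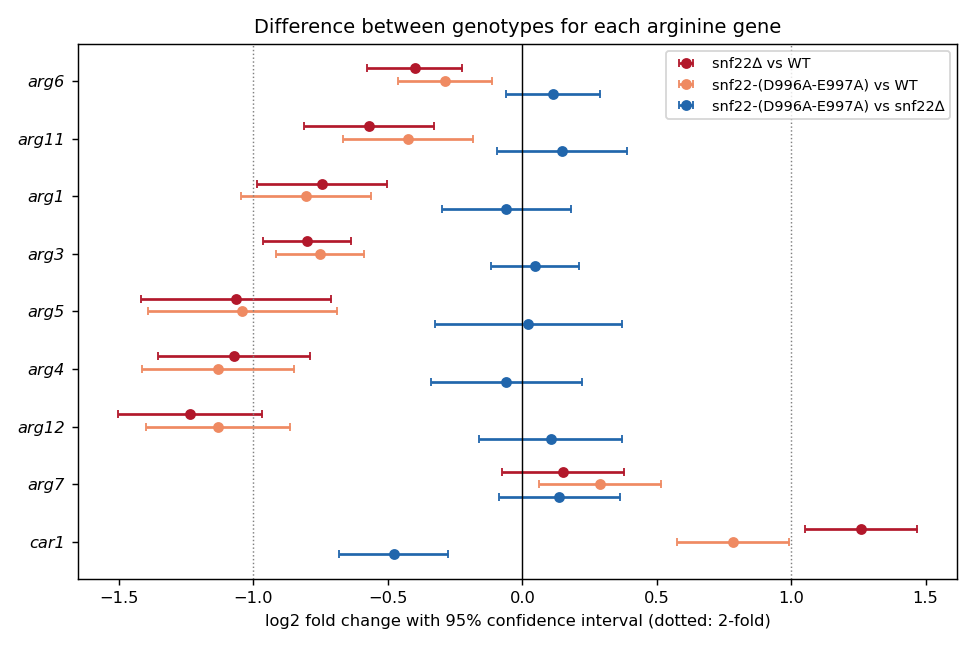
Log2 fold change (horizontal axis) with its 95% confidence interval for each gene, from edgeR; red is snf22∆ against WT, orange snf22-(D996A-E997A) against WT and blue snf22-(D996A-E997A) against snf22∆, and dotted lines mark 2-fold. The red and orange points of arg6 to arg12 lie left of 0, down to -1.24, and blue intervals span 0 except that of car1 at -0.48.

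The arginase gene car1 rose in both mutants, and by different amounts. It had 1808, 1756 and 1503 normalized counts in snf22∆ and 1270, 1189 and 1179 in snf22-(D996A-E997A), against 738, 745 and 629 in WT, and no 2 of the 3 genotypes overlap. It was 2.40-fold higher in snf22∆ (log2 fold change 1.26 ± 0.095 SE, edgeR adjusted p = 1.64e-06), which was called, and 1.72-fold higher in snf22-(D996A-E997A) (0.78 ± 0.095, edgeR adjusted p = 9.41e-05), which was short of 2-fold and not called. Of all genes tested, 2.56% were called higher and 30.2% rose in snf22∆, and 1.90% were called higher and 25.8% rose in snf22-(D996A-E997A). Among the 4990 coding genes tested, 111 were called higher and 1671 rose in snf22∆, and 78 and 1409 in snf22-(D996A-E997A). A second arginase gene, aru1, has the same coding length as car1, 972 bases, and a much higher level: 14882 ± 1410, 10456 ± 1659 and 7014 ± 1777 normalized counts per kb in snf22∆, snf22-(D996A-E997A) and WT (SD, n = 3 each), beside 1738 ± 168, 1248 ± 51.1 and 724 ± 66.8 for car1. The gene aru1 had 15408, 15096 and 12893 normalized counts in snf22∆ and 8301, 11109 and 11079 in snf22-(D996A-E997A), against 8349, 4946 and 7157 in WT. All snf22∆ values lie over WT, while snf22-(D996A-E997A) replicate 1 lies just under WT replicate 1. It was called higher in snf22∆, at 2.12-fold (edgeR adjusted p = 0.00042), and rose 1.49-fold in snf22-(D996A-E997A) (edgeR adjusted p = 0.0172). In both the genotypes with an outlying library, that library (snf22-(D996A-E997A) replicate 1 and WT replicate 2) had the lowest aru1 count and the highest arg5, arg4 and arg12 counts. No run of 51 bases, the read length, is shared by car1 and aru1, or by arg7 and arg41, in the reference sequence.

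Set directly against each other, the mutants showed no difference in the synthesis genes that passed the test. None of the 8 passed the adjusted p between snf22-(D996A-E997A) and snf22∆, and their median log2 fold change was 0.08, against -0.02 over all genes tested. The 95% confidence intervals ran from -0.06 to 0.29 for arg6, -0.09 to 0.39 for arg11, -0.30 to 0.18 for arg1 and -0.12 to 0.21 for arg3, and from -0.33 to 0.37 for arg5, -0.34 to 0.22 for arg4, -0.16 to 0.37 for arg12 and -0.09 to 0.36 for arg7. Each of these intervals takes in both directions, so differences of either sign within them remain possible. With the 2 outlying libraries left out, the arg4 level in snf22-(D996A-E997A) fell below that in snf22∆ by 0.19 on the log2 scale (edgeR adjusted p = 0.0412). Of all genes tested, 0.887% were called lower, 0.969% called higher, 8.64% fell and 8.13% rose between the mutants. The gene car1 was the one member that differed: its level in snf22-(D996A-E997A) was 1.39-fold under that in snf22∆ (log2 fold change -0.48, 95% confidence interval -0.68 to -0.28, edgeR adjusted p = 0.00493), and the highest snf22-(D996A-E997A) library was 1.18-fold under the lowest snf22∆ library. For aru1 the difference was -0.51 (edgeR adjusted p = 0.0618).

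The order of the levels, as normalized counts per kb of coding length in WT, was arg12 (21047 ± 3459), arg1 (20542 ± 2477), arg5 (14582 ± 3150), arg4 (10342 ± 1628), arg11 (5887 ± 866), arg3 (3564 ± 332), arg6 (3227 ± 299), car1 (724 ± 66.8) and arg7 (397 ± 38.9), each with the SD of 3 libraries. The SD ranges of arg12 and arg1 overlap, as do those of arg3 and arg6. Within libraries, arg12 and arg1 did not keep the same order in WT, while arg3 was over arg6 in each WT library. The gene arg5 was over arg4 in each library of every genotype. Among 4964 coding genes with a coding length, arg12 ranked 252 and arg7 3771 in WT. In the mutants the top of the order changed: arg1 stood first, with 12261 ± 1005 for snf22∆ and 11765 ± 1353 for snf22-(D996A-E997A), over arg12 at 8932 ± 499 and 9605 ± 1252. The gene car1, with 1738 ± 168 for snf22∆ and 1248 ± 51.1 for snf22-(D996A-E997A), still lay under arg3 at 2048 ± 29.9 and 2117 ± 90.3. The lyase arg7 was lowest in all 3 genotypes, at 440 ± 6.33, 484 ± 45.2 and 397 ± 38.9 in snf22∆, snf22-(D996A-E997A) and WT, a level beside which arg41 had 2859 ± 84.1, 3077 ± 372 and 3941 ± 517.

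The 7 genes that fell also moved together between replicates of 1 genotype. The share of all genes tested that did so is not given. In snf22-(D996A-E997A) replicate 1 all 7 were over their genotype mean, by 0.07 (arg3) to 0.33 (arg5) on the log2 scale, and in WT replicate 2 by 0.15 (arg6 and arg3) to 0.34 (arg5). The gene arg7 was under its mean in the same libraries, at -0.14 and -0.12. Over the 9 libraries the deviations from the genotype mean had a Pearson r of 0.86 (arg6 and arg1) to 0.995 (arg5 and arg12) among the 7 genes, -0.69 to -0.79 between arg7 and the 7, and 0.19 to 0.55 between car1 and the 7. The libraries differ in depth and composition and these coefficients rest largely on the 2 outlying libraries. With the other 7 libraries alone, WT and snf22-(D996A-E997A) have 2 libraries each. In these, arg1, arg5, arg4 and arg12 kept coefficients of 0.96 to 0.99 among themselves. The genes arg11 and arg3 had 0.66 to 0.87 with those genes and with each other. For arg6 the range was -0.03 to 0.66 with the other 6 of its group, and for arg7 it was -0.21 to 0.31 with the 7. The coefficients of car1 turned negative with 6 of the 7 (-0.62 with arg5 to -0.25 with arg11) and stayed positive with arg6, at 0.42.

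**Figure D3:**
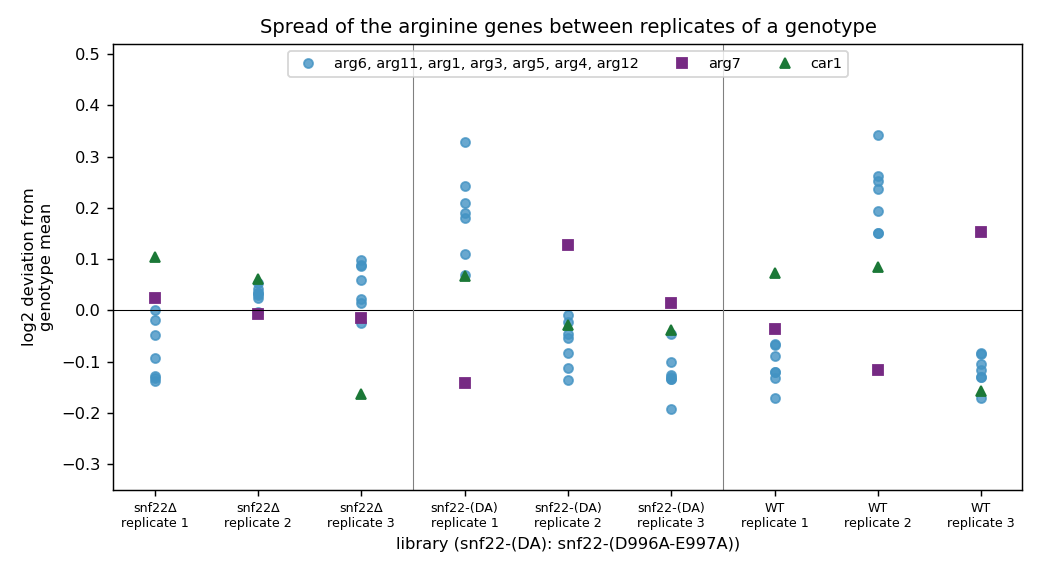
Log2 deviation of each gene from the mean of its genotype (vertical axis) in each of the 9 libraries (horizontal axis, genotypes parted by lines); blue circles are the 7 synthesis genes that fell, the purple square is arg7 and the green triangle car1. The blue circles lie together over 0 in snf22-(D996A-E997A) replicate 1 and in WT replicate 2, where arg5 is highest at 0.33 and 0.34.

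Around the 9 genes, the other arginine and ornithine genes did not share 1 direction. Of 10, 2 fell, 3 rose and 5 did not pass in snf22∆, with 2 called higher, and 4 fell, 4 rose and 2 did not pass in snf22-(D996A-E997A), with 1 called higher. The median log2 fold changes were 0.02 and -0.04. Among all genes tested, 25.8% fell and 30.2% rose in snf22∆, and 22.7% fell and 25.8% rose in snf22-(D996A-E997A). The shares called higher were 2.56% and 1.90% in the same mutants, and those called lower 3.1% and 3.07%. Whether this list departs from these shares was not tested. Besides aru1, the called gene was SPAC11D3.09, annotated as an agmatinase, which splits urea off agmatine, a decarboxylated arginine: it averaged 498 ± 48.3 normalized counts in snf22∆ and 416 ± 45.0 in snf22-(D996A-E997A), against 201 ± 29.4 in WT (SD, n = 3 each). It was 2.48-fold and 2.08-fold higher in the same mutants (edgeR adjusted p = 2.75e-05 and 0.000188). The ornithine transaminase gene car2, which passes ornithine on toward proline and glutamate, was at 0.09 on the log2 scale in snf22∆ against WT (edgeR adjusted p = 0.443) and rose by 0.48 in snf22-(D996A-E997A) (edgeR adjusted p = 0.00317), and the mutants differed by 0.38 (edgeR adjusted p = 0.0237). The urea released by arginase is split by urease. Of 4 urea genes, 2 fell and 2 rose in snf22∆, and 1 fell and 1 rose in snf22-(D996A-E997A). The called one in both was SPBC23G7.13c, annotated as a plasma membrane urea transporter, with means of 43.5 ± 16.0 and 14.1 ± 10.2 normalized counts in snf22∆ and snf22-(D996A-E997A) against 258 ± 67.0 in WT, 5.95-fold and 17.9-fold lower (edgeR adjusted p = 0.00019 and 2.39e-05).

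Glutamate, which supplies the carbon chain of arginine, and aspartate, which supplies 1 of its nitrogens, had their own genes lower in part. Of 6 such genes, 4 fell and 1 rose in snf22∆ with none called, and 5 fell in snf22-(D996A-E997A) with 1 called, with medians of -0.70 and -0.77. Beside these and the next lists, 25.8% of all genes tested fell and 30.2% rose in snf22∆. In snf22-(D996A-E997A) the shares were 22.7% and 25.8%. The called gene was gdh1, for the NADP-specific glutamate dehydrogenase, and the mutants moved it in opposite directions: 36318 ± 1902 normalized counts in snf22∆ and 7325 ± 743 in snf22-(D996A-E997A), against 26264 ± 1218 in WT. Its log2 fold change was 0.47 in snf22∆ (edgeR adjusted p = 0.00117) and -1.84 in snf22-(D996A-E997A) (edgeR adjusted p = 6.99e-08), and between snf22-(D996A-E997A) and snf22∆ it was -2.31 (edgeR adjusted p = 2.89e-08). Outside the rule for named genes, glt1, for glutamate synthase, was 1.98-fold lower in snf22∆ (edgeR adjusted p = 4.77e-05), just short of the call. In snf22-(D996A-E997A) glt1 was 1.72-fold lower (edgeR adjusted p = 0.000307). The genes gdh2, caa1 and maa1 also fell in both mutants. Of 6 basic amino acid transport genes, 5 fell and 1 rose in snf22∆, and 4 fell and 1 rose in snf22-(D996A-E997A). The one that rose was aat1, annotated as a plasma membrane amino acid transporter, which was 1.73-fold higher in snf22∆ (edgeR adjusted p = 0.000293) and 2.14-fold higher, and called, in snf22-(D996A-E997A) (edgeR adjusted p = 3.99e-05). Among 7 regulators of the amino acid starvation response, 1 fell and 2 rose in snf22∆, and 1 fell and 1 rose in snf22-(D996A-E997A). The RNA of the transcription factor gene fil1 had 23720 ± 648 normalized counts in snf22∆ and 24943 ± 2127 in snf22-(D996A-E997A), against 25620 ± 5119 in WT, with log2 fold changes of -0.11 and -0.04 (edgeR adjusted p = 0.456 and 0.809). The eIF2 alpha kinase gene hri1 was called higher in both, at 2.63-fold and 2.80-fold (edgeR adjusted p = 1.95e-06 and 1.92e-06).

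Genes for the synthesis of other amino acids were set beside the arginine list. Over all genes tested, 25.8% fell and 30.2% rose in snf22∆, and 22.7% fell and 25.8% rose in snf22-(D996A-E997A). Of 7 lysine genes, 5 fell in snf22∆, and 3 fell and 1 rose in snf22-(D996A-E997A) (medians -0.59 and -0.30). Of 7 histidine genes, 5 fell and 1 rose in each mutant (medians -0.63 and -0.36). The snf22∆ median is the value of his3, which averaged 463 normalized counts in WT. All strains carry mutant alleles of his3 and of leu1, a gene of the next list, so the values of both come from mutant loci. Of 7 leucine, isoleucine and valine genes, 6 fell in snf22∆ and 4 in snf22-(D996A-E997A) (medians -0.32 and -0.29). Of 6 tryptophan and aromatic genes, 4 fell in each (medians -0.37 and -0.24). The arginine synthesis list had the lowest median of these 5 lists in both mutants, a difference that was not tested. The one called gene of the 4 other lists was eca39, for a branched chain amino acid aminotransferase, in snf22∆, at 2.83-fold lower (edgeR adjusted p = 1.07e-05), while it was 1.55-fold lower in snf22-(D996A-E997A) (edgeR adjusted p = 0.00398).

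**Figure D4:**
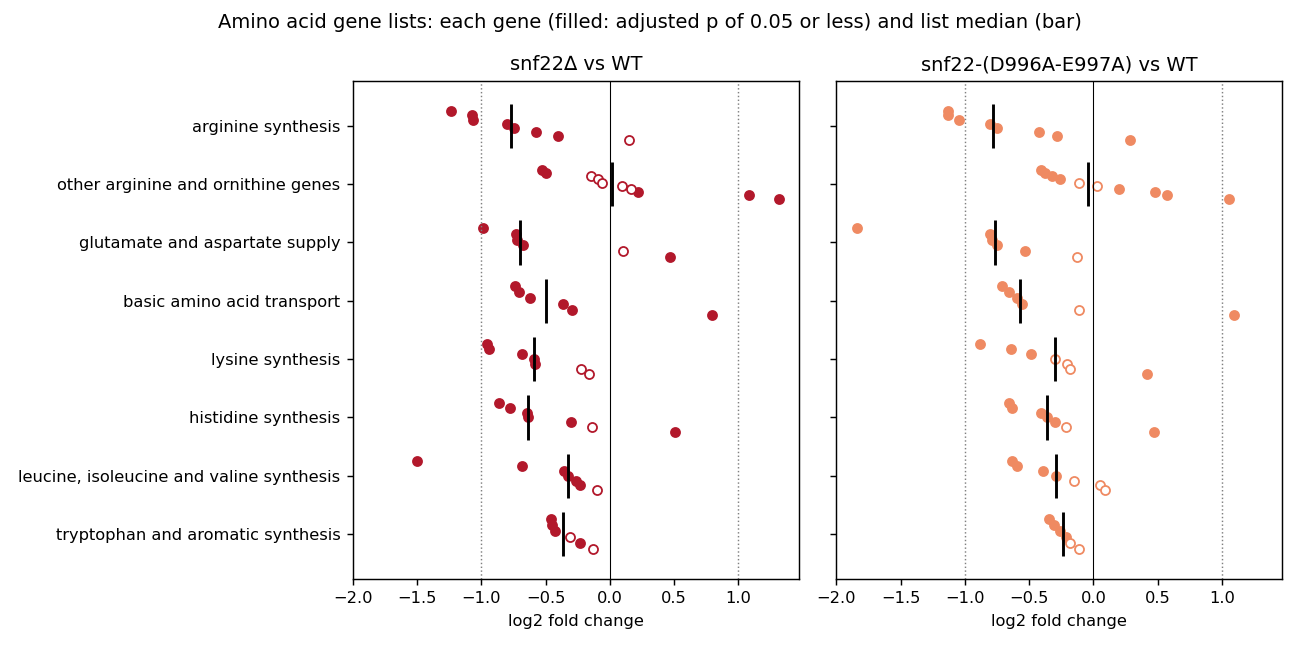
Log2 fold change (horizontal axes) of each gene of 8 gene lists in snf22∆ against WT and in snf22-(D996A-E997A) against WT; filled circles passed an adjusted p of 0.05, open circles did not, bars are list medians and dotted lines mark 2-fold. The arginine synthesis genes have medians of -0.77 and -0.78, with 3 genes past 2-fold in each panel.

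The coding genes next to the 9 did not all share 1 direction. Outside the members, most neighbors of the 7 genes that fell also fell in snf22∆, where 25.8% of all genes tested fell, and cmb1 and pdp2 rose. Fewer of these neighbors fell in snf22-(D996A-E997A), where 22.7% of all genes tested fell. Whether neighbors fell more often than other genes was not tested. None of the neighbors outside the members was called in a mutant. Beside arg6, ura5, for orotate phosphoribosyltransferase, fell by 0.74 in snf22∆ (edgeR adjusted p = 9.98e-05) and by 0.28 in snf22-(D996A-E997A) (edgeR adjusted p = 0.0317), while psf2 on the other side had log2 fold changes of 0.45 and 0.23 (edgeR adjusted p = 0.056 and 0.327). Beside arg3, cmb1 rose by 0.52 and 0.45 (edgeR adjusted p = 0.00503 and 0.0138), and beside arg4, pdp2 rose by 0.74 and 0.67 (edgeR adjusted p = 0.00552 and 0.012), so that these partners moved against the member they flank. Beside arg12, apq12 fell by 0.63 and 0.42 and rxt2 by 0.36 and 0.35, and beside arg1, ubc12 fell by 0.50 and 0.42 while bit61 fell by 0.19 in snf22∆ and had -0.16 in snf22-(D996A-E997A), which did not pass. Beside arg5, puf1 fell by 0.42 and 0.30, and alg5 by 0.34 in snf22∆, with a log2 fold change of -0.14 in snf22-(D996A-E997A) that did not pass. Beside arg4, erg10 fell by 0.20 in snf22∆ and had 0.13 in snf22-(D996A-E997A), which did not pass. Beside arg7, SPBC1773.13, annotated as an aromatic aminotransferase, fell by 0.53 in snf22-(D996A-E997A) (edgeR adjusted p = 0.00696) and had 0.14 in snf22∆, and beside car1, gor2 fell by 0.54 and 0.74. The neighbors rpc2 (beside arg11), dal52 (beside arg7) and fet4 (beside car1) passed in neither mutant. The genes arg7 and car1 are themselves parted by 3 coding genes.

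RNAs on the strand opposite to arg4 and arg12 were also measured. The RNA that the files name arg4-antisense-1 had 60.4, 45.1 and 77.7 normalized counts in snf22∆ and 28.5, 34.4 and 36.9 in snf22-(D996A-E997A), against 38.1, 156 and 222 in WT. WT replicate 1 lies under every snf22∆ library and just over the highest snf22-(D996A-E997A) library. It was called lower in both mutants (log2 fold change -1.17, edgeR adjusted p = 0.0499, and -2.04, edgeR adjusted p = 0.00687). Its raw counts were 0.116% to 0.680% of those of arg4 in the same library. SPNCRNA.1360, which the annotation of the later genome version places opposite arg12, was called lower as well (-1.28, edgeR adjusted p = 0.00543, and -1.55, edgeR adjusted p = 0.00297), with 0.333% to 0.872% of the counts of arg12. SPBC215.07c-antisense-1, which overlaps arg4 on the opposite strand, fell by 0.36 and 0.39 and was not called. The libraries keep strand, but the strand setting of the counting is not stated. In the later annotation SPBC215.07c-antisense-1 covers 44.4% of arg4 and arg4-antisense-1 covers 55.8%, while arg4 had the highest WT counts of the members. How far the counting kept reads of a gene and of its opposite partner apart was not tested. What part of these low counts is reads of arg4 or arg12 itself was not tested.

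Over the 9 libraries, the 6 coding genes outside the list whose log2 level was most like the mean of the standardized levels of the 8 synthesis genes were sno1 (Pearson r 0.998), tda1 (0.995), erb1 (0.994), SPCC70.08c (0.994), aca1 (0.994) and lys3 (0.993). They are annotated as a glutamine aminotransferase subunit, a threonine ammonia-lyase, a protein with WD repeats, a methyltransferase, an L-azetidine-2-carboxylic acid acetyltransferase and saccharopine dehydrogenase of lysine synthesis. A high coefficient is common here, since all genes that differ between the genotypes share the same 9 libraries: 451 of 4751 candidates exceeded 0.9. Of the 6, SPCC70.08c (4.83-fold and 3.55-fold lower) and aca1 (2.75-fold and 2.38-fold lower) were called in both mutants, and sno1 was 2.00-fold and 1.79-fold lower, just short of the call. Most like car1 were mdh1 (0.996), rbd3 (0.993), ssn6 (0.991), mug14 (0.990), ght4 (0.984) and isp5 (0.984), with 193 candidates over 0.9. All 6 had the car1 order of means, snf22∆, then snf22-(D996A-E997A), then WT, which follows from how they were picked. They span malate dehydrogenase (mdh1, 2.02-fold and 1.59-fold higher in snf22∆ and snf22-(D996A-E997A)), the corepressor Ssn6 (1.64-fold and 1.36-fold), a hexose symporter (ght4, 38.1-fold and 8.37-fold) and an amino acid transporter (isp5, 3.00-fold and 1.98-fold).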

How the data were processed

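The authors extracted total RNA with hot phenol, made stranded poly(A)+ libraries, mapped the read pairs to ASM294v2 (HISAT2 2.1.0) and summed them per gene over its exons (HTSeq 0.10.0). The deposited matrix holds these raw counts, unscaled. The authors' tables of DESeq2 fold changes and p-values were not used, other than for the gene names they pair with IDs. Neighbors, strands and coding lengths came from RefSeq's annotation of ASM294v3, a later build, so no coordinates and no sequences are printed.

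The members and gene lists were chosen with earlier results of these data known. The text names all 9 members, snf22, list genes called in a mutant, aga1, aru1, car2 and fil1, the 6 coding genes most like the synthesis members and the 6 most like car1, the nearest coding gene on each side of a member, and antisense RNAs. The 6091 genes that reached 10 counts in 3 or more libraries were tested with edgeR 4.0.16 (glmQLFTest, TMM, R 4.3.3), with all 9 libraries and genotype as the only factor, and p-values were adjusted by Benjamini-Hochberg over all genes tested. The biological coefficient of variation was 0.104. Normalized counts are CPM on TMM-scaled libraries times the mean scaled library size. Likeness is Pearson's coefficient of log2 normalized counts (pseudocount 1). The replicates are labelled biological, and nothing more is stated of their source. Same-numbered libraries of snf22∆ and WT deviated together (r 0.33, 0.48 and 0.52 over 5164 genes, a pairing read from the data, not the labels). Not all same-numbered libraries did so for snf22-(D996A-E997A) and WT (r -0.34, 0.08 and 0.56) or for snf22-(D996A-E997A) and snf22∆ (r -0.0043, 0.22 and 0.24). The test was checked on simulated data. Alternatives were RLE and upper quartile scaling, DESeq2 1.42.0, other filters, a replicate block, the 2 groups alone and each replicate left out, and 2 more chosen after seeing the data.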

Additional observations from a re-analysis of the deposited data

Results flagged for a closer look

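The rise of car1 relative to WT differed between the mutants by the direct test. The log2 fold change of snf22-(D996A-E997A) against snf22∆ was -0.48 (edgeR adjusted p = 0.00493), with 1270, 1189 and 1179 normalized counts in snf22-(D996A-E997A) and 1808, 1756 and 1503 in snf22∆.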

How the results depend on the processing

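Of the values recomputed for the 9 genes and their counts, 593 kept direction and side of the threshold, 10 lost and 1 gained the threshold, 13 moved and 7 turned. In snf22∆ against WT, upper quartile scaling, under which the median log2 fold change of all genes was 0.10 in place of 0.02, called 1 member lower in place of 3. Leaving out each replicate gave 1 to 3, with 1 without WT replicate 2, and leaving out WT replicate 2 together with snf22-(D996A-E997A) replicate 1, chosen after seeing the data, also gave 1. In snf22-(D996A-E997A) against WT, the members that rose at the adjusted p alone were 2 (car1 and arg7), and 1 under RLE scaling, under a minimum of 50 counts, with coding genes only, with the 2 groups alone and with the replicate block in the 2 groups alone (chosen after seeing the data); leaving out each replicate gave 1 to 2. Between the mutants 1 member was lower at the adjusted p, and 2 (car1 and arg4, -0.19) without the 2 outlying libraries, where arg5 was -0.16 and arg12 -0.0068, turned in sign. With each replicate left out in turn, the difference between the mutants ran from -0.15 to 0.026 for arg1, -0.16 to 0.14 for arg5, -0.19 to 0.026 for arg4 and -0.0071 to 0.19 for arg12. It turned in sign for arg5 without snf22∆ replicate 1 (-0.039) or snf22-(D996A-E997A) replicate 1, for arg12 without the same snf22-(D996A-E997A) replicate 1, and for arg1 and arg4 without snf22-(D996A-E997A) replicate 3. None of the values that turned passed the adjusted p, and the cause was not tested. The replicate block over all 3 genotypes left 3 members called lower and 1 higher in snf22∆ and changed no other call. With 3 replicates per genotype, the 95% confidence intervals of the synthesis genes between the mutants take in both directions, so differences within them remain possible.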
